A study of Mus musculus with 12 samples.

Results

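The intervals described here are the H3K27ac-marked stretches of the mouse genome that lie between genes and far from any start site in the table. From the table of intervals in 4T1 cells, those that the authors annotated as intergenic, whose distance to the nearest transcription start site (TSS) in the table exceeded 50000 bp and whose length was at least 400 bp and under 20 kb were taken. Of 126464 intervals, 37064 were intergenic and 14210 of those were past the distance limit. Of these, 5375 were shorter and 52 were longer than the length limits, which left 8783 far intergenic intervals, 6.95% of the table. The rule used position, annotation and length and no measured value. At the distance limit, an interval near Usp3 lay 49999 bp away and was left out with a mean of 15.4, and one near Gm26902 lay 50008 bp away and was kept with a mean of 32.8. At the length limits, an interval 1 bp too short near Gm49723 (mean 7.22) and one of 20042 bp near Eif3h (mean 821) were left out, and those of 400 bp near Gm49534 (mean 4.69) and of 19966 bp near Gm30228 (mean 1442) were kept.

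H3K27ac was measured by chromatin immunoprecipitation and sequencing (ChIP-seq) in 4T1, a mouse mammary carcinoma line of wild-type genotype, after treatments that act on the supply of acetyl-CoA, the acetyl donor of histones. Cells were treated for 48 h with vehicle, 5 mM acetate, 50 µM etomoxir, etomoxir + acetate, 50 µM SB204990 + 50 µM etomoxir, or SB204990 + etomoxir + acetate, at these doses in the combinations too. Acetate is a source of acetyl-CoA, etomoxir blocks the entry of long-chain fatty acids into mitochondria through Cpt1a, and SB204990 blocks ATP citrate lyase, which makes acetyl-CoA from citrate. There were 6 groups of 2 libraries. The library names carry 1 of 2 suffixes that are shared across the treatments and are called set 1 and set 2 here, and pairs of values are given in that order. All groups share 1 cell line in 1 medium with serum. SB204990 was never given without etomoxir, so its own effect cannot be told apart. The value of an interval, its scaled signal, is its read count multiplied by a factor that the authors derived from human chromatin added to each library.

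Acetylation of lysine 27 of histone H3 is deposited mainly by the acetyltransferases p300 and CBP and marks active promoters and enhancers. Enhancers are stretches of DNA bound by transcription factors that raise the transcription of a gene in cis, often across long distances and past nearer genes. Runs of closely spaced, strongly acetylated enhancers often surround genes for transcription factors and signals that define a cell's identity. A nearest gene is therefore named here only as a landmark, not as the target of an interval.

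The following 5 intervals are those the results turn on most, and the central 300 bases of each are printed to show what kind of sequence they hold. They were read from the plus strand of the RefSeq mouse genome, build GRCm38, which is the mm10 of the table. They are a stretch 58.2 kb upstream of Pdk4, one assigned to Msl3l2 and one assigned to Gm45144, which all rose with etomoxir. Next is one near Gm9747. Among those named, it rose most with acetate when averaged over no inhibitor, etomoxir and SB204990 + etomoxir. The last is the interval with the highest mean signal, near 5430434I15Rik. Capitals mark matches, on either strand, to 8 motifs that were searched: TGANTCA for AP-1, GGAATG for TEAD, TGTGGT for RUNX, TGTTTAC for forkhead factors, AACCNGTT for GRHL, CGGAAGT for ETS, GGGCGG for SP/KLF factors and AGNGGGCGC for CTCF.
Pdk4, chr6:5554313-5554612: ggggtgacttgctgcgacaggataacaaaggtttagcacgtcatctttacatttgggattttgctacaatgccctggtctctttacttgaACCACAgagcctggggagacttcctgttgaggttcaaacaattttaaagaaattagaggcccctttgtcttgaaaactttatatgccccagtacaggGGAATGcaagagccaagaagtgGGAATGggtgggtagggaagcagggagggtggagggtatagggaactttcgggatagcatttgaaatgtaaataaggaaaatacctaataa
Msl3l2, chr10:55234969-55235268: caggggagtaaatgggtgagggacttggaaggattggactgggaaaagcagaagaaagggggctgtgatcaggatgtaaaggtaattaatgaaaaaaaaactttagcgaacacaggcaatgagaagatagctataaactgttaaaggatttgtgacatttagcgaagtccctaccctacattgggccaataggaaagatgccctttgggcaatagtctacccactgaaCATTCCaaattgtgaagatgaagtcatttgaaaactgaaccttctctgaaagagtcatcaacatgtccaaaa
Gm45144, chr7:88924512-88924811: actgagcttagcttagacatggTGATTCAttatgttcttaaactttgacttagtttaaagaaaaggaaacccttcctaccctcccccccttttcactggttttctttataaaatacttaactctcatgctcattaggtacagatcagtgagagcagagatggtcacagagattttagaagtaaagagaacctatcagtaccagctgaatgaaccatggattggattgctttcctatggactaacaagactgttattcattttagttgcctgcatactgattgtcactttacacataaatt
Gm9747, chr1:82156225-82156524: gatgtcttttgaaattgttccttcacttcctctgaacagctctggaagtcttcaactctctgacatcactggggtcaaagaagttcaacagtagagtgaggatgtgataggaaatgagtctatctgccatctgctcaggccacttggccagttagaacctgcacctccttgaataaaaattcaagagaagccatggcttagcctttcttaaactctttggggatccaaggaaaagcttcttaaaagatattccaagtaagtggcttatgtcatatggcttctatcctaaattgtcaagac
5430434I15Rik, chr3:38279281-38279580: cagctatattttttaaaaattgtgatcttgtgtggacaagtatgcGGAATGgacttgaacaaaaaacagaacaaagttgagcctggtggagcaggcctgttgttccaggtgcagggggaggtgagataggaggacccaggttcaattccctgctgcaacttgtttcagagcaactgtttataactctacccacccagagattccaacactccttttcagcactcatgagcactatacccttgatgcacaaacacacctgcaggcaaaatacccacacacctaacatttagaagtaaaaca
The Pdk4 window held 2 TEAD matches and 1 RUNX match, the Msl3l2 and 5430434I15Rik windows 1 TEAD match each, and the Gm45144 window 1 AP-1 match. The Gm9747 window held none. Soft-masked repeats covered 59.3% of the Pdk4 window and 35.0% of the 5430434I15Rik window, and none of the Gm9747 window. A match is a string of letters and was not tested as a bound site.

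Reads in all intervals ranged from 7179165 to 16676442 per library, and those in far intergenic intervals from 379301 to 752418. The scaling factors ran from 0.398 to 1. Between 12 and 93 of the far intergenic intervals had 0 reads in any 1 library. The set 2 library of SB204990 + etomoxir stood apart: it had the fewest reads and the highest share of reads in far intergenic intervals, 5.28% (95% Wilson interval 5.27 to 5.30%, counting error only), against 4.31 to 4.64% in the other 11. The labels do not say that libraries of a group came from separate cultures, so p-values measure the spread between these libraries, which may be technical.

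Most far intergenic intervals were short and weakly marked, and a minority held most of the signal. Their median length was 907 bp, against 2239 bp for promoter intervals, 989 bp for intronic intervals equally far from a start and 1037 bp for intergenic intervals within 50 kb of one. Per kb of length, the mean scaled signal over the 12 libraries had a median of 13.6 (quartiles 8.60 and 18.3), below the medians of 20.2, 15.1 and 15.97 in those 3 classes. The strongest 878 intervals held 60.03% of the summed signal, and the strongest 88 held 15.8%. The same fractions of intervals held 44.3% and 8.69% in promoter, 59.0% and 14.3% in far intronic and 60.3% and 14.1% in near intergenic intervals. A mean of at least 50 was reached by 1849 intervals and a mean of at least 500 by 98.

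Signal per kb was lower the farther intervals lay from the nearest start. The median was 15.4 for the 3918 intervals at 50 to 100 kb, 13.5 for the 2487 at 100 to 200 kb, 9.46 for the 1790 at 200 to 500 kb and 7.53 for the 588 beyond 500 kb. Those nearest to the limit held 55.1% of the signal of all far intergenic intervals, and those beyond 500 kb held 2.64%. Length moved with strength as well: the 4728 intervals under 1000 bp had a median of 9.93 per kb and the 192 of at least 10000 bp had a median of 35.4 per kb. The farthest interval lay 2094 kb from a start, and 4470 intervals (50.9%) were upstream of the nearest start and 4313 downstream.

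**Figure D1:**
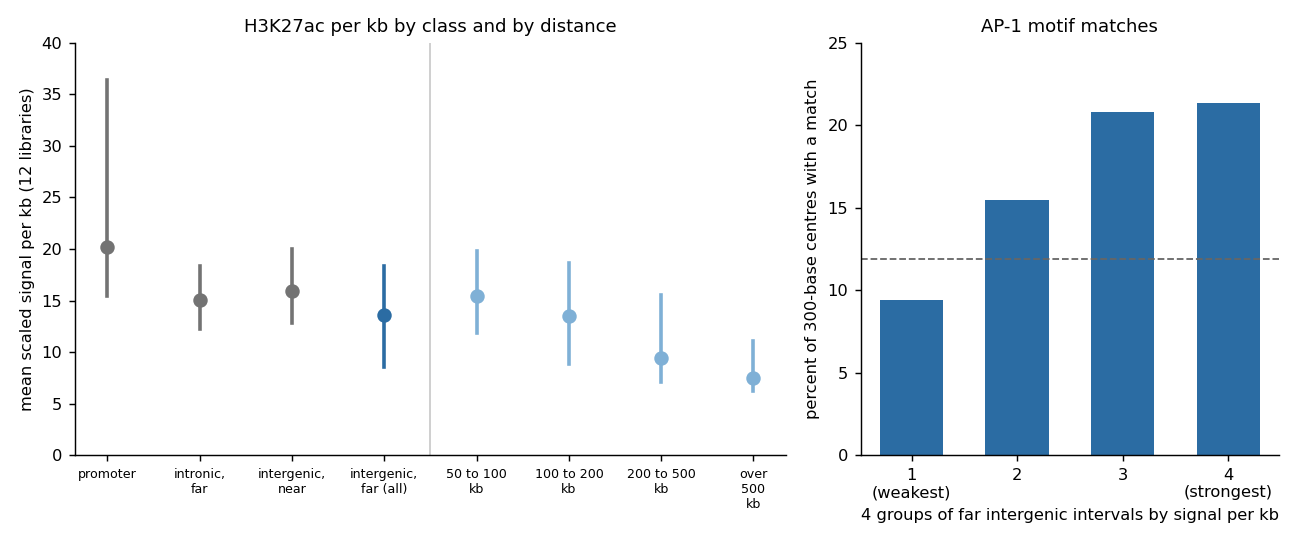
Left, mean scaled signal per kb over 12 libraries (points, medians over intervals; lines, quartiles) for 4 classes of interval and for far intergenic intervals binned by distance to the nearest start. Right, percent of the 300-base centres of far intergenic intervals with an AP-1 match, in 4 equal groups by signal per kb, with the share over all intervals of those lengths as a dashed line. Medians go from 15.4 at 50 to 100 kb to 7.53 beyond 500 kb, and the share with an AP-1 match goes from 9.38% to 21.3%.

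The label intergenic held for most intervals and the label far from genes for fewer. In the GENCODE annotation of the same build, 8360 intervals (95.2%) overlapped no gene, 423 overlapped one and 62 overlapped a protein-coding gene. A transcript start lay inside 165 intervals and a protein-coding one inside 6. A distance over 50 kb from every protein-coding start was kept by 7817 intervals (89.0%), but from every annotated start by 4343 (49.4%). Among the 4440 intervals with a start within 50 kb, that start belonged to a pseudogene in 2586 (58.2%) and to a protein-coding gene in 642 (14.5%), while the table assigns intervals almost wholly to protein-coding genes and long noncoding RNAs (lncRNAs). The table gave a lncRNA as the nearest gene of 52.1% of far intergenic intervals, compared with 30.3% of all intervals of the same lengths. Of 8 epithelial marker genes 7 had an interval at their start, with 33.2 to 74.6 per kb, while 3 of 13 markers of other cell types had one, those of Csf1r, Pecam1 and Cdh5, with 23.7 to 47.4 per kb.

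Far intergenic intervals were unevenly spread over the chromosomes. There were 5.00 per Mb on chromosome 13, 4.82 on 15, 4.32 on 16 and 4.29 on 2, against 1.87 on X, 1.97 on 9 and 2.02 on 19. Chromosome 15 also had the highest median signal per kb, at 19.6, and held 9.58% of the signal of these intervals. Its promoter intervals, with 22.7 per kb, were within the range of 17.1 to 22.9 for the other autosomes. Without input libraries in the data used here, DNA copy number and H3K27ac per copy cannot be told apart in such differences.

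Far intergenic intervals were also summed by locus. Grouped by nearest protein-coding start in GENCODE, 48 intervals around Inhba, which encodes a subunit of activin, summed to a mean of 4949. They were followed by 25 around Has2, which encodes a hyaluronan synthase (4322), 15 around Tars, a threonyl-tRNA synthetase gene (3614), 24 around the transcription factor gene Myc (2905) and 18 around Asap1 (2707). Cd47, whose product protects cells from phagocytosis, had 12 intervals (2670), and the transcription factor genes Sox9, Gata3 and Klf6 had 35, 28 and 25 (2501, 2369 and 2146). Has2, Tars, Myc, Asap1 and A1bg, 5 of the 10 strongest, are on chromosome 15.

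The locus sums were higher with acetate in each inhibitor background and in both sets. The 48 Inhba intervals between 15740952 and 16851272 on chromosome 13 summed to 4212 and 4482 with vehicle, 6040.0 and 5679.8 with acetate, 4379 and 4380.1 with etomoxir, 7169 and 6898 with etomoxir + acetate, 2628 and 3767 with SB204990 + etomoxir and 4165 and 5590.4 with SB204990 + etomoxir + acetate. Each acetate library was 1.27 to 1.64 times the library of its set without acetate. The 24 Myc intervals on chromosome 15 between 61478437 and 62839513 summed to 1959 and 2672 with vehicle, 2855 and 3232 with acetate, 2649 and 2473 with etomoxir, 4504 and 4256 with etomoxir + acetate, 1421 and 2946 with SB204990 + etomoxir and 2559 and 3334 with SB204990 + etomoxir + acetate, and the acetate folds were 1.13 to 1.80. In both loci the SB204990 + etomoxir library of set 1 was the lowest of the 12, and at Myc its set 2 counterpart was above both vehicle libraries. Sums at Has2 were 1.24 to 1.68 times as high with acetate as without. These folds carry the depth of each library and were not tested by locus.

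Many of these intervals came in runs. Intervals no more than 12.5 kb apart were joined into 5096 runs, of which 3444 were single intervals (39.2% of the intervals) and 279 had at least 5 (1920 intervals). The run with the most intervals, 22, lay at chr16:92924280-93018406, with Runx1, a transcription factor gene, as the nearest protein-coding gene. The highest summed signal, 3084, was in 13 intervals at chr15:11505115-11579280, followed by 2531 in 10 intervals at chr16:49918059-50011539 near Cd47 and 1988 in 15 intervals at chr16:55477958-55582116 near Zpld1. Single intervals of very high signal were 5430434I15Rik (chr3:38270026-38288835, mean 1728, 176 kb from Ankrd50), Gm30228 (chr10:27975008-27994973, mean 1442, 89.8 kb from Ptprk) and 4930559C10Rik (chr12:92883782-92892082, mean 1303). The last was the densest of the 5 strongest at 157 per kb.

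The interval of highest mean, near 5430434I15Rik, had scaled signals of 1508 and 1569.5 with vehicle, 2124 and 1922 with acetate, 1486 and 1524 with etomoxir, 2245 and 2344 with etomoxir + acetate, 1073 and 1155 with SB204990 + etomoxir and 1575 and 2215 with SB204990 + etomoxir + acetate. Acetate libraries exceeded the library without acetate in all 3 backgrounds and both sets. Its log2 change over the 3 backgrounds was 0.58 ± 0.10 (SE), with a limma adjusted p of 7.78e-08. Of the 1849 intervals whose mean reached 50, the farthest from a table start was assigned to Adgrl3, an adhesion receptor gene, at 1239 kb (chr5:80549685-80554905, mean 124), and another Adgrl3 interval lay at 1108 kb (mean 86.6). An interval at chr12:63101990-63105991, assigned to Gm48421, lay at 1039.8 kb with a mean of 136.

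The central 300 bases of far intergenic intervals were poor in CpG and rich in repeats and AP-1 matches. Median GC content was 43.7%, compared with 51.3% for promoter, 44.7% for far intronic and 46.0% for near intergenic intervals. A CpG observed to expected ratio over 0.6 was found in 1.69% of them. It was found in 26.5% of promoter, 1.74% of far intronic and 2.40% of near intergenic centres. Soft-masked repeats covered 30.4% on average, against 14.7%, 21.2% and 28.2% in those classes. An AP-1 match was present in 16.7% of 8777 far intergenic centres, in 8.68% of promoter, 12.8% of far intronic and 14.4% of near intergenic centres, and in 11.9% of all 87543 centres of intervals of those lengths. AP-1 is the family of Fos and Jun proteins, which bind enhancers in many cell types.

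Both features moved with strength. In 4 equal groups from the weakest to the strongest by signal per kb, AP-1 matches were present in 9.38%, 15.5%, 20.8% and 21.3% of centres, and mean repeat cover was 45.2%, 30.8%, 23.7% and 21.9%. Median length rose over the same groups from 683 to 3841 bp. TEAD matches were present in 19.6% of far intergenic and 16.4% of all centres, RUNX in 22.0% and 22.9%, forkhead in 4.51% and 4.12%, and GRHL in 2.32% and 2.19%. The other motifs searched were less common than over all centres, which include promoters: ETS in 0.570% and 1.10%, SP/KLF in 3.04% and 6.66%, and CTCF in 0.160% and 0.424%. In far intronic centres they were present in 0.832%, 3.69% and 0.200%. These shares are descriptions of letters in a fixed window, and no difference between them was tested.

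Far intergenic H3K27ac, taken as summed scaled signal, rose with acetate as a whole. Summed scaled signal was 307170 and 355938 with vehicle and 454186 and 456645 with acetate, 355781 and 355123 with etomoxir and 606743 and 580716 with etomoxir + acetate, and 230498 and 379301 with SB204990 + etomoxir and 379420 and 494060 with SB204990 + etomoxir + acetate. Within sets, the acetate libraries had 1.48 and 1.28, 1.71 and 1.64, and 1.65 and 1.30 times the signal of their partners in the 3 backgrounds, and were thus higher in 6 of 6 pairs. Over the backgrounds the log2 change was 0.58 (1.499-fold). Acetate labels were exchanged within backgrounds in an exact permutation test (two-sided), which gave p = 0.00926, the smallest p this design allows. With labels exchanged within sets as well, the exact permutation p was 0.03125, the smallest possible there. Without the set 2 SB204990 + etomoxir library the log2 change was 0.70 (1.63-fold). In set 1 alone the log2 change was 0.68 and in set 2 alone 0.48. Multiplying each library's share of reads by its factor removes its depth from the value, and the change then was 0.38, with an exact permutation p of 0.259. By that measure the set 2 pair on top of SB204990 + etomoxir was lower with acetate. Its acetate library had 0.830 times the share of its partner, and a factor of 0.867 against 1.

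The totals with inhibitors stood differently to vehicle in the 2 sets, and these folds were not tested. Etomoxir gave 1.16-fold and 0.998-fold the vehicle signal in sets 1 and 2, and SB204990 + etomoxir gave 0.750-fold and 1.07-fold. The etomoxir libraries lay within the range of the vehicle libraries, and the SB204990 + etomoxir libraries lay on either side of both.

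**Figure D2:**
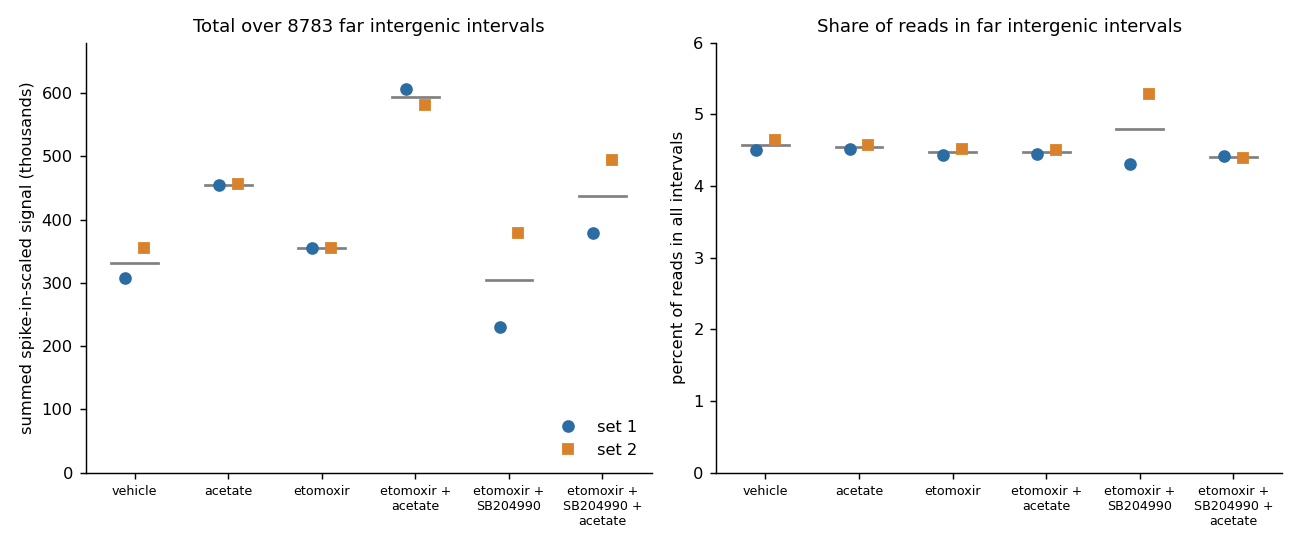
Left, summed spike-in-scaled signal over 8783 far intergenic intervals (in units of 1000) in each of the 12 libraries; right, percent of reads in all intervals that fell in them. Circles are set 1, squares set 2 and lines the mean of 2 libraries. The acetate library is above its partner in every set and background at left, while at right 11 libraries lie between 4.31 and 4.64% and the set 2 SB204990 + etomoxir library at 5.28%.

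No change in the share of the signal held by far intergenic intervals was detected with acetate. The share of their reads differed by -0.04 on the log2 scale (exact permutation p = 0.630). Relative to promoter intervals the log2 change was -0.02 (exact permutation p = 0.935, adjusted over 3 classes 0.935), and relative to far intronic intervals -0.03 (exact permutation p = 0.130, adjusted 0.194). Relative to intergenic intervals near a start, far intergenic signal was lower with acetate in 6 of 6 pairs. It was 0.966 times as high on average (0.912 to 0.988 by pair). The exact permutation p was 0.0185, and 0.0556 after adjustment, which misses the 0.05 threshold. With labels exchanged within sets as well, the exact permutation p was 0.03125, and 0.09375 after adjustment. With etomoxir the share differed by -0.03 on the log2 scale (exact permutation p = 0.167, smallest possible 0.0556) and with SB204990 + etomoxir by 0.01 (exact permutation p = 1). Without the set 2 SB204990 + etomoxir library, the acetate difference was 0.0067 for the share (exact permutation p = 0.574) and 0.057 relative to promoter intervals (exact permutation p = 0.120, adjusted 0.181). The share with SB204990 + etomoxir then differed by -0.065, at the smallest p the exact permutation test allows, 0.0556.

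Among single intervals, 4765 of 8783 (54.3%) reached the mean of 10 over the 12 libraries that was needed for a test, compared with 50.5% of the whole table, 85.2% of promoter, 65.0% of far intronic and 68.3% of near intergenic intervals. With limma, 3350 of the 4765 (70.3%) rose with acetate over the 3 backgrounds (adjusted p under 0.05) and 0 fell. Of all 63903 tested intervals 77.2% rose. An unadjusted p under 0.05 was found for 3497. The estimate was positive in 4752 intervals, and the median log2 change was 0.59 (quartiles 0.47 and 0.71), with 0.64 over all tested intervals. Without the set 2 SB204990 + etomoxir library, 4398 rose (92.3%, with 94.8% of all tested intervals) and the median was 0.72, with 0.77 over all tested intervals.

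By background, 2331 far intergenic intervals rose with acetate on top of etomoxir (all intervals, 56.4%; median log2 change 0.77 against 0.83), 1084 on top of SB204990 + etomoxir (all intervals, 27.4%; 0.56 against 0.62) and 8 with acetate alone (all intervals, 0.0955%; 0.47 against 0.48). These counts turned on single libraries. That for acetate alone was 0 without any 1 of the 8 libraries of vehicle, acetate, etomoxir and etomoxir + acetate, 275 or 277 (5.77 or 5.81%) without an SB204990 + etomoxir + acetate library and 935 (19.6%) without either SB204990 + etomoxir library. Over all tested intervals the shares in the last 2 cases were 8.98 or 8.99% and 21 or 21.2%. That on top of etomoxir was 241 to 918 (5.06 to 19.3%, with 8.05 to 27% over all tested intervals) without any 1 of its own 4 libraries. That on top of SB204990 + etomoxir was 56 (1.18%, with 3.31% of all tested intervals) without the set 2 library with acetate and 3221 (67.6%, with 71.6%) without the set 2 library lacking acetate. Without the set 1 library lacking acetate, 183 were higher (3.84%, with 8.28% of all tested intervals) and 132 lower (2.77%, with 0.729%). The median log2 change on top of SB204990 + etomoxir, 0.56 with all libraries, was 0.20 without the set 1 library lacking acetate and 0.91 without the set 2 one, against 0.23 and 0.96 over all tested intervals. Whether the acetate change itself differed between backgrounds was tested as an interaction. None of the far intergenic intervals passed in limma for etomoxir or for SB204990 + etomoxir, with 55 and 13 at an unadjusted p under 0.05, and edgeR gave 0 for both, with 59 and 69 unadjusted. Without the set 1 SB204990 + etomoxir library, the interaction with the inhibitor pair was called in 29 far intergenic intervals in limma (0.609%), all lower, against 0.202% of all tested intervals, and its median went from 0.11 to -0.26. Without the set 2 library 0 were called in limma, with 477 at an unadjusted p under 0.05, and the median was 0.44, so that its sign followed the library left out.

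These calls depended on how the libraries were scaled. With median-of-ratios scaling, which sets the typical interval to no change, 0 far intergenic intervals passed in limma for the averaged acetate effect, with 511 at an unadjusted p under 0.05, and the median log2 change went from 0.59 to -0.04, with 0.64 to 0.01 over all tested intervals. Each single acetate comparison also had 0 calls in limma, with 202, 246 and 301 unadjusted. With shares of reads times the factor in place of counts, which keeps the factors, the averaged effect had a median of 0.39 and 0 calls in limma, with 184 unadjusted.

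**Figure D3:**
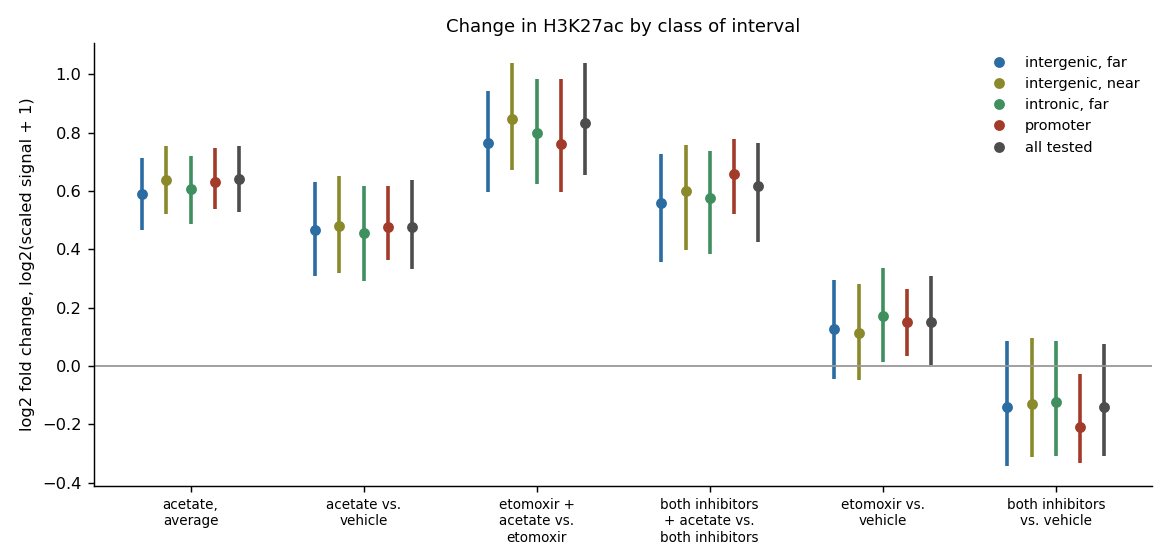
Median log2 fold change (points) and quartiles (lines) over tested intervals, by class, for the averaged acetate effect, the 3 acetate comparisons and the inhibitor comparisons with vehicle, on log2(scaled signal + 1). For the averaged acetate effect the far intergenic median of 0.59 lies beside 0.61 in far intronic, 0.63 in promoter and 0.64 in near intergenic intervals.

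The share of intervals called followed their signal more than the size of their change. At means of 10 to 20, 20 to 50, 50 to 200 and at least 200, the averaged acetate effect was called in 37.4%, 72.5%, 96.3% and 99.8% of 1600, 1316, 1364 and 485 intervals. The median log2 changes were 0.54, 0.60, 0.62 and 0.59, and the median SE fell from 0.30 to 0.12. In the weakest intervals 1 library decided the fold. In 4 equal groups by mean signal, from weakest to strongest, the acetate fold of the summed signal was 1.25, 1.41, 1.51 and 1.53, but without the set 2 SB204990 + etomoxir library it was 1.74, 1.74, 1.71 and 1.61. In that set, SB204990 + etomoxir + acetate was 0.319, 0.653, 1.05 and 1.53 times SB204990 + etomoxir. That library had 0.396% of its reads in the weakest group, against 0.065 to 0.114% in the other 11, and 3.77% in the strongest, within their 3.64 to 3.83%.

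**Figure D4:**
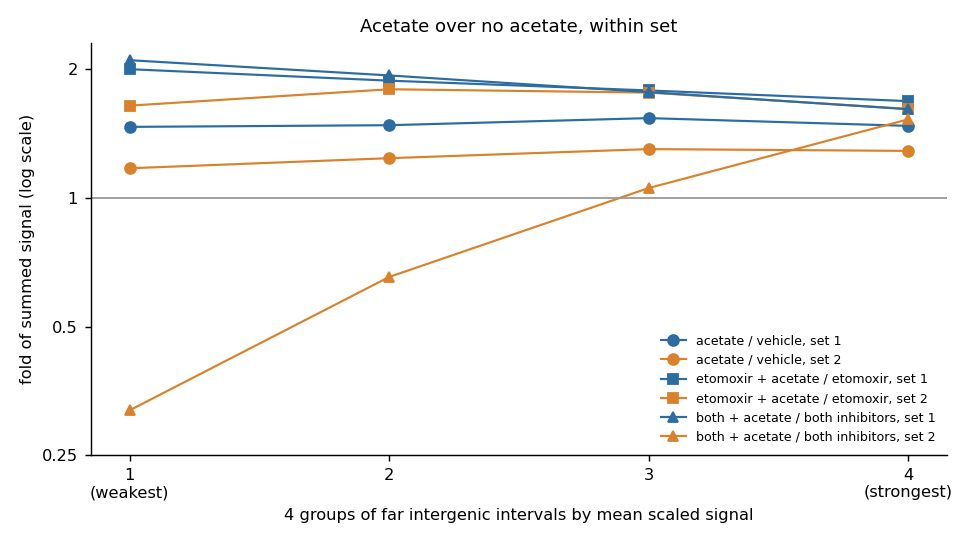
Fold of summed scaled signal, acetate over no acetate within a set (log scale), for 4 equal groups of far intergenic intervals ranked by mean signal, for 3 backgrounds and 2 sets. Of the 6 lines 5 stay above 1 throughout, and that of SB204990 + etomoxir in set 2 rises from 0.319 in the weakest group to 1.53 in the strongest.

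The same library marked the table genes with the most far intergenic intervals. Cdh26, a cadherin gene, had 61 on chromosome 2 (178512680 to 178937659) with a median of 7.48 per kb, 4930591A17Rik had 53, Gm42626 had 38, Gm36667 had 36 and 1700028P15Rik had 33. The Cdh26 intervals summed to 208 and 441 with vehicle, 321 and 543 with acetate, 243 and 195 with etomoxir, 515 and 404 with etomoxir + acetate, 166 and 1486 with SB204990 + etomoxir and 415 and 428 with SB204990 + etomoxir + acetate. The set 2 SB204990 + etomoxir library was 3.37 times its vehicle there, and 3.24 to 3.70 times at the other 4, while the remaining 11 libraries spanned 166 to 543 at Cdh26. Only 14 of the 61, and 0 of the 33 of 1700028P15Rik, reached the mean of 10, so that few of these intervals entered the tests.

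Gm9747 and Gm13485 had large changes with acetate among called intervals with a mean of at least 50 and 1 direction in both sets. The Gm9747 interval (chr1:82154598-82158150, 76.7 kb upstream) had 79.5 and 66.6 with vehicle, 179 and 145 with acetate, 82.9 and 66.4 with etomoxir, 203 and 192 with etomoxir + acetate, 47.00 and 62 with SB204990 + etomoxir and 95.7 and 110.1 with SB204990 + etomoxir + acetate. Every acetate library exceeded every library without acetate. The log2 change was 1.15 ± 0.15 (SE; 2.22-fold), limma adjusted p = 1.05e-11, and this interval was among the top 3 for acetate alone (1.13 ± 0.26, adjusted p = 0.0342 in limma) and on top of etomoxir (1.40 ± 0.26, adjusted p = 3.39e-05 in limma). The Gm13485 interval on chromosome 2 changed by 1.10 ± 0.18 (limma adjusted p = 8.97e-09).

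The 8 intervals that rose with acetate alone in limma included stretches near Gm28183 (1.31 ± 0.30 on the log2 scale, adjusted p = 0.0298) and Gm15556 (1.07 ± 0.26, adjusted p = 0.0445), and Gm9747 above. The others lay near Ahr, which encodes the aryl hydrocarbon receptor (1.05), Ranbp3l (1.00), Tsc22d2 (0.92), Rmdn2 (0.91) and Gm47336 (0.90). Among called intervals with a mean of at least 50 and 1 direction in both sets, the largest changes on top of etomoxir after Gm9747 were near Habp2, a gene for a hyaluronan-binding protease, and Gm48336 (1.36 ± 0.34 and 1.34 ± 0.28, adjusted p = 0.000771 and 9.19e-05). By the same rule, those named on top of SB204990 + etomoxir were near Gm28563 and Gm48854 (1.27 ± 0.33 and 1.27 ± 0.25, adjusted p = 0.00169 and 0.000164).

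Etomoxir alone raised 4 far intergenic intervals and lowered 0 (limma, adjusted p under 0.05), of the 4765 tested. Over all intervals 0.0626% changed, and 95 far intergenic intervals had an unadjusted p under 0.05. Of the 4, 2 lay upstream of Pdk4. Pdk4 encodes pyruvate dehydrogenase kinase 4, which inhibits the entry of pyruvate into the citric acid cycle and is induced by fatty acids and fasting through PPAR nuclear receptors. Under median-of-ratios scaling 4 passed as well (0.0839%, with 0.0344% of all tested intervals), and the nearer Pdk4 interval, Gm45144 and Msl3l2 were among them (limma adjusted p = 0.00199, 0.0102 and 0.0236).

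The nearer Pdk4 interval (chr6:5550181-5558744, 58.2 kb upstream) had 81.8 and 112 with vehicle, 126 and 135 with acetate, 244 and 242 with etomoxir, 341 and 348 with etomoxir + acetate, 151 and 224 with SB204990 + etomoxir and 235 and 309.6 with SB204990 + etomoxir + acetate. All 8 libraries with etomoxir were above all 4 without it, and the lowest of the 8 was the set 1 SB204990 + etomoxir library. The log2 change with etomoxir was 1.34 ± 0.22 (SE; 2.53-fold), limma adjusted p = 2.2e-05, with 1.57 in set 1 and 1.11 in set 2. The change with acetate differed by 0.05 on the log2 scale with and without etomoxir (limma adjusted p = 0.970). As CPM, its reads scaled to a common total of reads in intervals, which uses no spike-in factor, it had 11.99 and 14.6 with vehicle, 12.5 and 13.5 with acetate, 30.4 and 30.8 with etomoxir, 24.98 and 26.9 with etomoxir + acetate, 28.1 and 31.2 with SB204990 + etomoxir and 27.3 and 27.5 with SB204990 + etomoxir + acetate.

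The farther Pdk4 interval (chr6:5580934-5592335, 90.4 kb upstream) had 137 and 199.7 with vehicle, 173 and 180.1 with acetate, 350.3 and 397 with etomoxir, 483 and 549 with etomoxir + acetate, 269 and 364 with SB204990 + etomoxir and 354 and 481 with SB204990 + etomoxir + acetate. The 8 etomoxir libraries were again above the other 4, and acetate alone left it inside the vehicle range. The log2 change with etomoxir was 1.17 ± 0.21 (2.25-fold, limma adjusted p = 7.37e-05) and with SB204990 + etomoxir 0.92 ± 0.21 (1.89-fold, limma adjusted p = 0.0228). It was the 1 far intergenic interval that rose with the inhibitor pair. One more Pdk4 interval, 128 kb upstream and nearer to the protein-coding gene Dync1i1, had a log2 change of 0.53 ± 0.23 with etomoxir (limma adjusted p = 1).

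The other 2 intervals that rose with etomoxir lay far from protein-coding genes. The Gm45144 interval (chr7:88921755-88927567, 221 kb from Tmem135) had 57.5 and 56.3 with vehicle, 75.5 and 81.8 with acetate, 147 and 137 with etomoxir, 200 and 191 with etomoxir + acetate, 96.4 and 128 with SB204990 + etomoxir and 137 and 161 with SB204990 + etomoxir + acetate. Its log2 change with etomoxir was 1.30 ± 0.25 (2.47-fold, limma adjusted p = 0.000898). The Msl3l2 interval (chr10:55232725-55237511, 872 kb from the nearest protein-coding start) had 39.7 and 50.7 with vehicle, 64.6 and 53.4 with acetate, 110.3 and 117 with etomoxir, 166 and 157 with etomoxir + acetate, 70.9 and 92 with SB204990 + etomoxir and 122 and 124 with SB204990 + etomoxir + acetate. Its log2 change was 1.32 ± 0.27 (2.50-fold, limma adjusted p = 0.00335). In both, all 8 etomoxir libraries lay above all 4 others.

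Such a separation, the 8 etomoxir libraries above the 4 others, was found in 11 of the 4765 tested far intergenic intervals (0.231%) and in 0.0892% of all tested intervals. This count was made after the values were seen and was not tested. There were 10 calls for etomoxir without either SB204990 + etomoxir library (0.21%, with 0.0939% of all tested intervals higher). The 4 calls were lost without either etomoxir library, while the fold changes of the 3 intervals named by rule moved little. With the set 1 or the set 2 etomoxir library left out, and the spread of the lone library taken from the other groups, the log2 changes were 1.33 and 1.34 at the nearer Pdk4 interval, 1.25 and 1.35 at Gm45144 and 1.36 and 1.28 at Msl3l2. The limma adjusted p of the nearer Pdk4 interval was 0.0622 or 0.0581, and those of Gm45144 and Msl3l2 were 0.293 or more. Without the set 1 vehicle library the 3 values were 0.270, 0.174 and 1. With shares of reads times the factor 0 passed in limma, with 4 at an unadjusted p under 0.05.

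**Figure D5:**
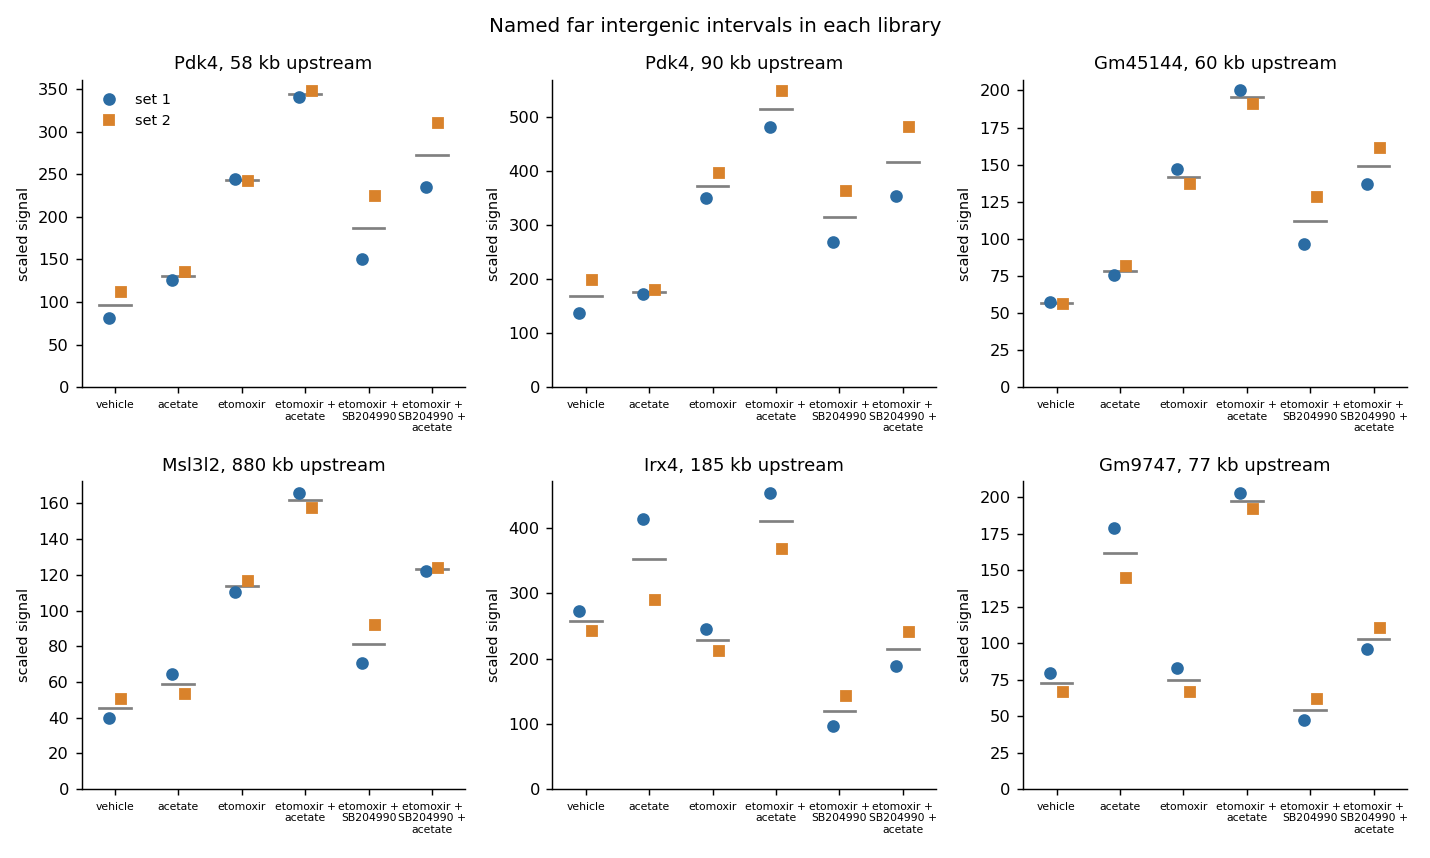
Scaled signal of 6 named far intergenic intervals in each of the 12 libraries (circles, set 1; squares, set 2; lines, mean of 2). In the first 4 panels, Pdk4 at 58.2 and 90.4 kb, Gm45144 and Msl3l2, the 8 libraries with etomoxir lie above the 4 without; Irx4 is lowest with SB204990 + etomoxir; and Gm9747 is high in the 6 acetate libraries.

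SB204990 + etomoxir changed 6 far intergenic intervals against vehicle in limma, the Pdk4 interval above upwards and 5 downwards. Over all intervals 0.0532% changed, and 341 far intergenic intervals had an unadjusted p under 0.05. The interval near Irx4, an Iroquois homeobox gene (chr13:73069645-73081178), had 274 and 242 with vehicle, 414 and 290.3 with acetate, 245 and 212 with etomoxir, 454 and 368 with etomoxir + acetate, 95.99 and 142 with SB204990 + etomoxir and 188 and 240.2 with SB204990 + etomoxir + acetate. Its 2 SB204990 + etomoxir libraries were the lowest of the 12, and the log2 change was -1.14 ± 0.21 (0.455-fold, limma adjusted p = 0.000705). Near Bms1, a ribosome assembly gene (chr6:118365225-118369486), the change was -1.20 ± 0.26 (limma adjusted p = 0.0157), from 120.1 and 123 with vehicle to 43.0 and 64 with SB204990 + etomoxir. Near Tbc1d19 (chr5:53798484-53803640) it was -0.93 ± 0.21 (limma adjusted p = 0.0251), from 278 and 265 to 133 and 152, and this interval lay 8.54 kb from a GENCODE start of the same gene.

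The other 2 that fell were assigned to Gm28387 (-0.88, limma adjusted p = 0.0101) and Gm5082 (-0.89, limma adjusted p = 0.037). The direction of this comparison followed the library that was left out. Without the set 2 SB204990 + etomoxir library 335 far intergenic intervals fell (7.03%) and 1 rose, and without the set 1 library 160 rose (3.36%) and 4 fell. Over all tested intervals 3.92% fell in the first case and 1.02% rose in the second. The far intergenic count was lower without any 1 of the vehicle, acetate, etomoxir and etomoxir + acetate libraries. It was higher without either SB204990 + etomoxir + acetate library. The count over all tested intervals moved alike. With median-of-ratios scaling 9 rose and 2 fell, against 47 and 5 over all 63903 tested intervals. Under that scaling Bms1 passed (limma adjusted p = 0.0153) and Irx4 and Tbc1d19 did not (0.0627 and 0.231).

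Far intergenic intervals assigned to 4 gene lists were counted next, with genes taken as the nearest in the table. Of 61 EMT genes (epithelial-to-mesenchymal transition), 13 had 66 such intervals. Acetate over the 3 backgrounds raised 29 of the 42 tested (69.0%) and lowered 0, with a median log2 change of 0.61. Of all tested far intergenic intervals 70.3% rose, with a median of 0.59, and of all tested intervals 77.2%, so the list was near the share of its class. These included intervals near Itgb1, an integrin gene (mean 904, 0.66 ± 0.10, limma adjusted p = 6.13e-09), Fn1, the fibronectin gene (mean 798, 0.62 ± 0.10, limma adjusted p = 5.75e-08), and Postn, the periostin gene (mean 546, 0.59 ± 0.11, limma adjusted p = 7.7e-07). The Itgb1 and Postn intervals overlapped the starts of Gm45746 and Gm5641. None of the 42 changed with either inhibitor treatment in limma. Over all tested intervals only 0.0626% changed with etomoxir and 0.0532% with SB204990 + etomoxir.

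The Fn1 interval (chr1:71748519-71766706, 104 kb upstream) had 691 and 723 with vehicle, 969 and 995 with acetate, 704 and 679 with etomoxir, 1075 and 1063 with etomoxir + acetate, 429 and 567 with SB204990 + etomoxir and 724 and 957 with SB204990 + etomoxir + acetate. It was higher in each acetate library than in its partner, and lowest in both SB204990 + etomoxir libraries.

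Of 44 immediate early and proliferation genes, 8 had 50 far intergenic intervals, and 21 of the 30 tested rose with acetate (70.0%), again near the 70.3% of all far intergenic intervals. The strongest lay near the transcription factor genes Tfap2c (mean 504), Gata3 (267) and Nfkb1 (247), and the last was 20.8 kb from a GENCODE start of Nfkb1. Of 41 genes of fatty acid oxidation and PPAR targets, 6 had 28 intervals, of which 10 of 18 tested rose with acetate (55.6%, with 77.2% over all tested intervals) and 2, both of Pdk4, with etomoxir (0.0626% over all tested intervals). Of 28 genes of acetyl-CoA supply, 3 had 15 intervals. The strongest were weak, near Hdac2 (mean 16.1), Slc16a1 (10.4) and Slc16a7 (8.36), 2 were tested, and 0 changed with acetate in limma.

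Assignment by nearest protein-coding start in GENCODE widened the lists. EMT genes then had 248 intervals around 27 genes, of which 122 of 172 tested rose with acetate (70.9%), and immediate early and proliferation genes had 219 around 16 genes, with 108 of 157 (68.8%). Fatty acid oxidation and PPAR target genes had 30 around 6, with 11 of 20 (55.0%), and the 2 rises with etomoxir were the same Pdk4 intervals. Acetyl-CoA supply genes had 28 around 4, with 2 of 4 tested. The shares of the EMT and immediate early lists were again close to the 70.3% of all tested far intergenic intervals, and 77.2% of all tested intervals rose.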

How the data were processed

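Per the methods of the study and the labels, the authors aligned reads to human (GRCh38) and mouse (mm10) sequence merged into 1 genome with the nf-core/chipseq workflow and scaled each library by a factor from its percentage of human spike-in reads. The deposited signal is the read count of an interval multiplied by that factor. The highest factor is 1 in each set, so levels were also compared within sets. Whole reads were recovered from all values within a tolerance of 0.01. How the intervals were called and annotated, and whether on pooled libraries, is not given in the sources used here. A spike-in factor moves all intervals of a library together, and its error is not averaged out over intervals. No input libraries were used.

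Of the 126464 intervals, the 63903 with a mean of at least 10 entered 1 limma fit of 6 group means (limma 3.58.1 in R 4.3.3), on log2(scaled signal + 1), with Benjamini-Hochberg adjustment over all 63903. A fold change on this scale understates the change of low intervals. Totals and shares were tested by exact permutation of the acetate labels within inhibitor backgrounds. Named intervals were those with the highest means, the farthest with a mean of at least 50, the 3 strongest of each gene list, and up to 3 per comparison with the largest change among those called, with 1 direction in both sets and a mean reaching 50. 1 interval that meets this rule is left out of the text. The other intervals called with acetate alone, with etomoxir or with SB204990 + etomoxir were named after their values were seen. Sequences came from the RefSeq genome, and gene starts from GENCODE on GRCm38. The intervals and gene lists were chosen with earlier results of these data known. The scripts were tested on simulated data. Alternatives were other pseudocounts, filters and scalings, edgeR (version 4.0.16) on recovered reads, a replicate block, a limit of 100 kb and leaving out each library. The limit of 50 kb from every GENCODE start was added after seeing the data.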

Additional observations from a re-analysis of the deposited data

Results flagged for a closer look

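With the spike-in factors, the scaled signal of the Gm30228 and Habp2 intervals moved in opposite directions with etomoxir depending on acetate. At the Gm30228 interval (chr10:27975008-27994973), both etomoxir libraries were below both vehicle libraries without acetate (1145 and 1243 against 1301 and 1263), and both were above with acetate (1989 and 2010.3 against 1932 and 1696). The difference between the log2 changes was 0.25, with a limma adjusted p of 0.905. At the Habp2 interval on chromosome 19, the values were 30.3 and 29.2 with etomoxir against 41.1 and 34.9 with vehicle, and 74 and 81.6 with etomoxir + acetate against 65.8 and 71.5 with acetate. The difference was 0.52, also with a limma adjusted p of 0.905, and this interval was itself named for its large change with acetate on top of etomoxir. As CPM, which uses no spike-in factor, neither interval moved in opposite directions. Gm30228 had 143 and 158 with etomoxir against 191 and 165 with vehicle, and 146 and 156 with etomoxir + acetate against 192 and 169.8 with acetate. Habp2 had 3.78 and 3.72 against 6.03 and 4.54, and 5.42 and 6.32 against 6.54 and 7.16. Neither difference passed the test. In this way 138 contrasts of named intervals and of the far intergenic total, share and ratios were looked at.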

How the results depend on the processing

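The acetate effect on the far intergenic total kept its direction under the alternatives run for it, which did not include median-of-ratios scaling. It lost its call with the median over intervals in place of the sum (0.50 on the log2 scale, exact permutation p = 0.102) and with shares of reads times the factor (0.38, exact permutation p = 0.259). Leaving out each library gave 0.46 to 0.70 for the total, -0.092 to 0.0067 for the share of reads, -0.10 to 0.057 relative to promoter, -0.04 to -0.01 relative to far intronic and -0.07 to -0.03 relative to near intergenic intervals, -0.04 to -0.01 for the share with etomoxir and -0.065 to 0.082 for the share with SB204990 + etomoxir. Without the set 2 SB204990 + etomoxir library the share (0.0067), the ratio to promoter intervals (0.057) and the inhibitor share (-0.065) changed sign, as did the last without the set 1 vehicle library (-0.0021). Counts of far intergenic calls ranged, without 1 library, over 2463 to 4398 for the averaged acetate effect, 0 to 935 for acetate alone, 241 to 3400 on top of etomoxir, 56 to 3221 on top of SB204990 + etomoxir, 0 to 10 for etomoxir and 0 to 336 for SB204990 + etomoxir, where 164 calls, mostly higher, were made without the set 1 library. In each fit without 1 library, the share called for the averaged effect and on top of etomoxir was lower than over all tested intervals. For etomoxir and SB204990 + etomoxir it was higher in some fits and lower in others. The median log2 change of the averaged effect was 0.47 to 0.72 in these fits, against 0.53 to 0.77 over all tested intervals. A minimum mean of 50, with fewer intervals tested, gave 1804 (97.6%) and 355 (19.2%) calls for the averaged effect and acetate alone. Over all tested intervals these were 99.1% and 25.6%. For SB204990 + etomoxir it gave 18 calls (0.216% higher and 0.757% lower, against 0.137% and 0.299% of all tested intervals). No filter gave 0, 601 and 0 for acetate alone, on top of SB204990 + etomoxir and SB204990 + etomoxir. On top of SB204990 + etomoxir 6.82% were higher and 0.0228% lower, against 8.79% and 0.00949% of all intervals. Over all intervals 0 were called with acetate alone, and 0.00554% were higher and 0.000791% lower with SB204990 + etomoxir. Median-of-ratios scaling gave 0 in all 4 acetate comparisons, with at most 0.00156% of all tested intervals called. For SB204990 + etomoxir it gave 11 (0.189% higher and 0.042% lower, against 0.0735% and 0.00782% of all tested intervals). There edgeR gave 11 as well (0.105% higher and 0.126% lower, against 0.0501% and 0.0313%). Shares times the factor gave 0 in all 6. The cause of these changes was not tested. Same-numbered libraries did not deviate together (15 correlations, -0.149 to 0.354, 3 over 0.1), so the numbers were not taken to pair the libraries, and the labels do not say what the shared suffixes mark. A replicate block gave 3560, 158, 2651, 1333, 4 and 18 calls in the 6 comparisons in the order above, against 8 for acetate alone and 6 for SB204990 + etomoxir without it. In the 4 acetate comparisons 74.7, 3.32, 55.6 and 28% were higher, against 81.2, 3.26, 63.7 and 32.3% of all tested intervals. With etomoxir 0.0839% were higher, against 0.0704%. With SB204990 + etomoxir 0.0839% were higher and 0.294% lower, against 0.0485% and 0.0955%. Of 342 values of named intervals under the alternatives, 251 kept their side of the threshold, 91 lost it and 0 reversed. With intervals over 50 kb from every GENCODE start, chosen after seeing the data, the total changed by 0.58 (exact permutation p = 0.0185). The median SE was 0.30 at means of 10 to 20 and 0.12 at means of at least 200.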
